A study of Mus musculus with 4 samples.

Results

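The interleukin-7 receptor and STAT5 axis was followed as 8 genes, taken as the rows of the deposited matrices whose gene symbol was Il7r, Il2rg, Jak1, Jak3, Stat5a, Stat5b, Socs2 or Cish. All 8 were found, among 32285 gene rows. The libraries held CD45.2-positive, Kit-positive mouse bone marrow cells taken 10 weeks after transplantation, and each cell was read for transcripts and for barcoded surface antibodies, one of them against CD127, the protein encoded by Il7r. There was 1 library per group, and the 4 groups were Mll3/4 deleted, Mll4 deleted, Mll3 deleted and control. The proteins MLL3 and MLL4, histone H3 lysine methyltransferases, are encoded by Kmt2c and Kmt2d. The promoter that drove the deletions, the strain, the number of animals and the treatment of the recipients are not given in the sources used here.

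Interleukin 7 binds a receptor made of the IL-7 receptor alpha chain (Il7r) and the common gamma chain (Il2rg). The kinases JAK1 and JAK3 sit on these chains and phosphorylate STAT5A and STAT5B, which then enter the nucleus and bind DNA, among other places at the genes for their own inhibitors CISH and SOCS2. In mouse bone marrow this signal is needed for B-cell progenitors to survive and divide, and the same STAT5 proteins also serve the receptors for erythropoietin, thrombopoietin, prolactin and several myeloid cytokines.

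After filtering, 5350 to 7146 cells were kept per library, with a median of 5142 to 16963.5 unique molecular identifiers (UMIs) per cell, lowest in the Mll4 library. With 1 library per group there is no test: a sum of UMIs is given as counts per 1000000 (CPM) with an exact Poisson 95% interval, and a log2 ratio with an exact conditional 95% interval. Both cover counting error only. For control, Mll3, Mll4 and Mll3/4 in turn, Kmt2c was at 47.9, 27.2, 59.2 and 34.8 CPM, and Kmt2d at 25.8, 21.6, 24.99 and 24.7 CPM. Kmt2d was thus not lower in the Mll4 and Mll3/4 libraries by more than counting error, and each library is named by its label, as in Mll4-labelled. A 3′ count outside a deleted part checks nothing, and the deleted part is not given. Xist was at 0.519 CPM in the Mll4-labelled library and 954.8 to 1839 CPM in the other 3, so sex and label cannot be told apart there, which touches Il2rg on the X chromosome. Libraries shared 9 to 24 cell barcodes in pairs. Cells were also marked with 2 hashtag antibodies whose meaning the labels do not give, and values are given by hashtag where they differ.

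Cells were clustered without the 8 genes and named from marker genes, which gave 12 named classes. B-cell progenitor-like cells were 468 of 7146 in control (6.55%), 368 of 5860 in the Mll3-labelled library (6.28%), 143 of 5350 in the Mll4-labelled library (2.67%) and 6830 of 6917 in the Mll3/4-labelled library (98.7%). Of the 12 markers of that class, 12 were above 0 in all 4 libraries, and their summed level was 15374, 12980, 10036 and 12717 CPM in that order. The class is nonetheless made of different clusters: the control, Mll3-labelled and Mll4-labelled cells lie in a cluster with low Mki67 (a proliferation gene) and one with high Mki67, and nearly all Mll3/4-labelled cells in 3 other low and 2 other high clusters. Of these 5, 4 had Gria2, Rnase12 and Prlr among their leading genes, and the smallest was led by Crip1, Crip2 and Rnase12. They held almost no cells of another library, so that a library and a cell type cannot be told apart there. The antibody B220, a B-lineage form of CD45, averaged 199 counts per control cell of the class against 24.1 per Mll3/4-labelled cell. Neutrophil transcripts in the class also differed between libraries: the 9 neutrophil markers summed to 2426 CPM for control, 1789 CPM for Mll3-labelled, 6358 CPM for Mll4-labelled and 78.1 CPM for Mll3/4-labelled cells. The part of free RNA in the results below was not tested.

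STAT5 binds DNA at palindromes of the form TTCNNNGAA, and the promoters were searched for these letters because Il7r, Socs2 and Cish were together high in the Mll3/4-labelled cells. RefSeq promoter sequences of 300 bases on GRCm38.p6 were matched for 7 of the 8 genes. No promoter was matched for Socs2, so it was not searched. TTCNNNGAA is its own reverse complement, so both strands give the same matches. Cish held 2 matches, starting 1 and 12 bases into the transcript, and Il7r held 1 match that starts 142 bases before its start site. The promoters matched for Jak1, Jak3, Stat5a, Stat5b and Il2rg held none. Of 32851 promoters of this length, 8.30% held at least 1 match and 0.457% at least 2. The 30 bases around these sites are shown 5′ to 3′ on the strand of the gene, with the motif in capitals, for Cish at chr9:107296654-107296683 on the plus strand, inside an annotated exon, and for Il7r at chr15:9529999-9530028 on the minus strand, outside annotated exons.
Cish: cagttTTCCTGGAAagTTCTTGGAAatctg
Il7r: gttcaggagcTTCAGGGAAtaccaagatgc
Positions are counted from the RefSeq start sites, and the GENCODE gene spans given below begin further upstream, so both sites lie inside those spans. The letters describe the sequence only, and binding was not measured.

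Il7r (ENSMUSG00000003882; positions are from GENCODE M21 on GRCm38, here chromosome 15 from 9505788 to 9530176) was high in B-cell progenitor-like cells of every library. Its level there was 263.9 CPM for control (837 counts, 246 to 282), 248 CPM for Mll3-labelled (714 counts, 230.3 to 267), 320.0 CPM for Mll4-labelled (114 counts, 264 to 384) and 703 CPM for Mll3/4-labelled cells (53370 counts, 697 to 709). The Mll3/4-labelled value was the only one whose interval lay apart from the other 3. It was 2.67-fold the control value, a log2 ratio of 1.41 (1.32 to 1.51), against -0.09 (-0.23 to 0.06) in the Mll3-labelled and 0.28 (-0.02 to 0.56) in the Mll4-labelled library. After each cell was thinned to 2000 UMIs, an Il7r UMI was found in 37.4% of control cells of the class, 35.4% and 39.2% in the Mll3- and Mll4-labelled libraries and 66.8% in the Mll3/4-labelled library (65.7% to 67.9%). The same share in the erythroid progenitor-like class, which should lack the receptor, was 0 of 1567 control cells, which allows a share of up to 0.191% of cells with a UMI and where the median depth before thinning was 47603.5 UMIs against 4414.5 in the B class. Thinning left out 30 control, 18 Mll3-labelled, 69 Mll4-labelled and 83 Mll3/4-labelled cells.

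Other lymphoid classes also carried Il7r. Mature B cell-like cells, which reached 50 cells in the Mll3-labelled library alone, stood at 203.9 CPM (165 to 250), and the 50 T/NK/innate lymphoid-like cells of control at 139.8 CPM (101 to 189). The 47 T/NK/innate lymphoid-like cells of the Mll4-labelled library, below the minimum of 50, held 608 CPM (462 to 786), above the B-cell progenitor-like cells of their own library. The order of these classes therefore differed between libraries.

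Early progenitors held little Il7r. The lymphoid-primed progenitor-like class was a cluster led by Ccl9, Cd34 and Flt3 that also carried Cebpa. It held 4.72 CPM for control, 4.57 CPM for Mll3-labelled and no count for Mll4-labelled cells. The exact interval of the last ratio reached up to 0.616 of control. The 57 control counts lay in 2.35% of its cells, so counting error understates their spread. HSC/MPP-like cells, the class of stem and multipotent progenitor markers, were at 1.15, 1.37 and 0.512 CPM in the same order. Granulocyte progenitor-like, neutrophil-like, monocyte/macrophage progenitor-like, megakaryocyte-like and erythroid progenitor-like classes with at least 50 cells held 0 to 1.92 CPM. From dendritic cell-like cells, at 14.97 CPM in the Mll4-labelled library, down to the erythroid class, neighbours in the order of levels overlapped across libraries.

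**Figure D1:**
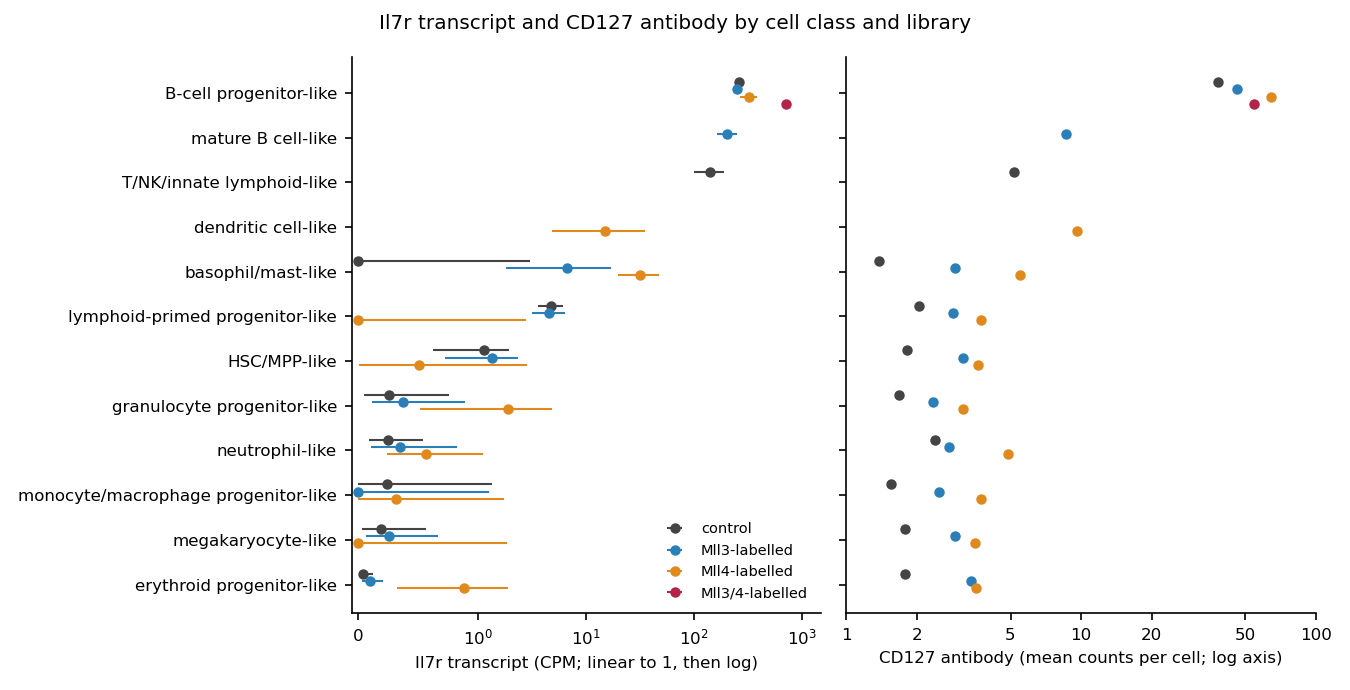
Il7r transcript (left, CPM with 95% counting intervals, linear to 1 and logarithmic above) and mean CD127 antibody counts per cell (right, log axis) for each class with at least 50 cells in a library. B-cell progenitor-like cells lie at 248 to 703 CPM and 38.2 to 64.3 antibody counts, and most other classes below 5 antibody counts.

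CD127 followed the class but not the size of the transcript difference. Its mean per B-cell progenitor-like cell was 38.2 counts for control, 45.9 for Mll3-labelled, 64.3 for Mll4-labelled and 54.3 for Mll3/4-labelled cells, with medians of 32, 40, 57 and 45. The Mll4-labelled cells were highest here, whereas the Mll3/4-labelled cells were highest for the transcript. The ratio of means between the Mll3/4-labelled library and control was 0.51 on the log2 scale. As a share of all surface antibody counts, CD127 was 2.57%, 3.42%, 3.84% and 7.29%, a log2 ratio of 1.503 between the last and the first. That share moves with the total, which had a median of 1418 counts per control cell against 564.5 per Mll3/4-labelled cell, where CD48 averaged 164 counts against 1081. CD117, the Kit protein the cells were sorted for, averaged 327 counts against 72.6. In the Mll4-labelled cells of the class, other antibodies were also higher than in control. Gr1 averaged 59.1 counts against 31.5, CD41 2.99 against 1.31 and CD201 8.29 against 3.95. The CD48 mean differed less, at 1163 against 1081, and B220 alone had a lower mean, at 183 against 199. The CD48 median was lower, at 891 against 1033. CD127 itself averaged 3.56 counts in Mll4-labelled erythroid progenitor-like cells against 1.78 in control. The part of such a shift in the Mll4-labelled CD127 value was not tested.

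Within the class, cells with an Il7r UMI carried more CD127 than cells with none. In the Mll3/4-labelled library, thinned cells with no Il7r UMI had a median of 38 CD127 counts, cells with 1 UMI 48, and cells with 2 or more 50. In control the medians were 31, 36 and 34, in the Mll3-labelled library 38.5, 44.5 and 49.5, and in the Mll4-labelled library 63, 77 and 75. Control and Mll4-labelled cells with 2 or more UMIs were thus not above those with 1. Unthinned control cells of the class with no Il7r UMI averaged 28.2 counts, and the non-lymphoid classes of control 1.38 to 2.39.

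Small classes differed in CD127 as well. The 47 T/NK/innate lymphoid-like cells of the Mll4-labelled library held 608 CPM of Il7r and 33.9 CD127 counts per cell, and the 50 of control 139.8 CPM and 5.18 counts. Mature B cell-like cells of the Mll3-labelled library, at 203.9 CPM, had 8.61 CD127 counts per cell, well under the 45.9 of the B-cell progenitor-like cells beside them at 248 CPM.

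Summed over all kept cells, Il7r was at 6.41 CPM for control, 6.73 CPM for Mll3-labelled, 6.71 CPM for Mll4-labelled and 689 CPM for Mll3/4-labelled cells. The log2 ratio of the last to control was 6.75 (6.66 to 6.84). In such sums, more cells of a class and more RNA per cell of it cannot be told apart, and B-cell progenitor-like cells held 85.0%, 78.0%, 51.8% and 99.8% of the Il7r counts of their libraries. For the Mll4-labelled library the all-cell log2 ratio of 0.07 (-0.15 to 0.28) was -0.89 in cells with at least 2000 UMIs and -1.88 in thinned cells, where 69 of its 143 B-cell progenitor-like cells were left out, so no direction is read from it.

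Il2rg (ENSMUSG00000031304, chromosome X from 101264378 to 101268255), the gamma chain shared with the receptors for interleukins 2, 4, 9, 15 and 21, was within 2-fold of control in the B class of each library. B-cell progenitor-like cells held 26.2 CPM for control (20.8 to 32.4), 16.3 CPM for Mll3-labelled (12.01 to 21.7), 28.1 CPM for Mll4-labelled (13.5 to 51.6) and 28.4 CPM for Mll3/4-labelled cells (27.2 to 29.6). Against control the log2 ratio was 0.12 (-0.20 to 0.45) for the Mll3/4-labelled and -0.68 (-1.23 to -0.15) for the Mll3-labelled library, short of 2-fold. Over all cells the Mll3/4-labelled value was 28.3 CPM against 13.5 CPM, a log2 ratio of 1.07 (0.98 to 1.15), which was 0.58 when each cell counted alike. Other classes held more: 166 CPM in T/NK/innate lymphoid-like control cells and 346 CPM (238 to 486) in the 47 such cells of the Mll4-labelled library, 104.8 CPM in dendritic cell-like cells and 60.8 to 136 CPM in basophil/mast-like cells. The predicted gene Gm20489 overlaps Il2rg on the same strand, so the split of reads between them is uncertain.

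Jak1 (ENSMUSG00000028530, chromosome 4 from 101152367 to 101265282), the kinase on the alpha chain, was expressed in all classes. B-cell progenitor-like cells held 118.8 CPM for control (107 to 131), 113.7 CPM for Mll3-labelled, 163 CPM for Mll4-labelled and 191.5 CPM for Mll3/4-labelled cells (188 to 195). The Mll3/4-labelled cells stood above control without reaching 2-fold, at a log2 ratio of 0.69 (0.54 to 0.84). Across the other classes and libraries with at least 50 cells Jak1 ranged from 62.4 CPM in monocyte/macrophage progenitor-like cells to 429 CPM in T/NK/innate lymphoid-like cells of control, leaving aside an unnamed cluster. In the Mll3-labelled library all 9 classes compared with control had a lower Jak1 value, by 0.01 to 0.29 on the log2 scale, and in 5 of them the interval lay below 0. The median log2 ratio over all genes of that library was also below 0, at -0.05 over all cells and -0.09 in the B class. Stat5a was lower there in 8 of 9 classes. Jak1 overlaps Raver2 on the opposite strand.

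Jak3 (ENSMUSG00000031805, chromosome 8 from 71676296 to 71690575), the kinase on the gamma chain, went the other way. It was at 11.7 CPM for control B-cell progenitor-like cells (37 counts, 8.21 to 16.1), 7.65 CPM for Mll3-labelled (22 counts), 2.81 CPM for Mll4-labelled (1 count, 0.0711 to 15.6) and 2.82 CPM for Mll3/4-labelled cells (214 counts, 2.45 to 3.22). The Mll3/4-labelled cells differed from control by a log2 ratio of -2.05 (-2.56 to -1.50), which was -2.498 in cells of the first hashtag and -1.66 in those of the second. All 5 clusters of the Mll3/4-labelled class held 2.52 to 3.41 CPM, below the 10.9 and 12.8 CPM of the 2 control clusters. Because its counts are low, thinned cells with a Jak3 UMI made up only 2.51% of control cells of the class and 0.578% of Mll3/4-labelled cells. Jak3 overlaps Insl3 on the same strand.

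In the Mll4-labelled library Jak3 was higher in most other classes. Over all cells it was at 10.3 CPM against 4.50 CPM in control, a log2 ratio of 1.19 (1.003 to 1.38). In neutrophil-like cells it was at 10.5 CPM against 4.09 CPM and in granulocyte progenitor-like cells at 14.4 CPM against 5.12 CPM. Jak3 was the 1 member past 2-fold upwards in each of the neutrophil-like, granulocyte progenitor-like, monocyte/macrophage progenitor-like and erythroid progenitor-like classes, where 4.68%, 9.98%, 9.29% and 8.17% of genes were. The neutrophil-like class lay in different clusters in the 2 libraries: 2 clusters held 800 and 657 control cells against 24 and 17 Mll4-labelled ones, and 2 others held 38 and 287 control cells against 1912 and 734, so library and cell state cannot be told apart there. At a finer clustering, a monocyte/macrophage progenitor-like cluster held 458 Mll4-labelled and 0 control cells. Another held 36 and 194, so the same limit applies to that class. HSC/MPP-like cells held 25.1 CPM against 12.8 CPM, a log2 ratio of 0.97 (0.48 to 1.44). Of 8 classes with enough counts, 7 were higher, with the interval above 0 in 5, and the median log2 ratio was 1.08. With each cell counting alike the all-cell value was 0.70, and in thinned cells 0.44 (0.04 to 0.84), both below 2-fold. Median depth was 5142 UMIs in this library against 15754 in control, and its part in the difference was not tested.

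Stat5a (ENSMUSG00000004043, chromosome 11 from 100859351 to 100885169) was lower in the Mll3/4-labelled cells. The B class held 20.8 CPM for control (66 counts, 16.1 to 26.5), 15.6 CPM for Mll3-labelled, 16.8 CPM for Mll4-labelled (6 counts) and 9.51 CPM for Mll3/4-labelled cells (722 counts, 8.83 to 10.2). From control to the last the log2 ratio was -1.13 (-1.49 to -0.74). It was -0.56 (-1.20 to 0.17) for the first hashtag alone and -1.49 for the second, a split that comes from control, where the 2 hashtags gave 14.6 and 25.7 CPM, while the Mll3/4-labelled cells gave 9.92 and 9.12 CPM. Other classes held more Stat5a: HSC/MPP-like, megakaryocyte-like, erythroid progenitor-like and basophil/mast-like cells held 40.5 to 64.9 CPM, and only neutrophil-like cells of the classes with 50 cells in 3 libraries, at 5.49 to 7.68 CPM, held less throughout. Over all cells the Mll3/4-labelled library was at 9.77 CPM against 37.7 CPM, with those higher classes nearly absent from it. Stat5a overlaps Stat3 on the opposite strand.

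Stat5b (ENSMUSG00000020919, chromosome 11 from 100780731 to 100850724), the near neighbour and close relative of Stat5a, differed less. It was at 20.5 CPM for control B-cell progenitor-like cells (15.8 to 26.1), 21.6 CPM for Mll3-labelled, 11.2 CPM for Mll4-labelled (4 counts) and 15.4 CPM for Mll3/4-labelled cells (14.5 to 16.3). For the Mll3/4-labelled library the log2 ratio was -0.41 (-0.78 to -0.03), short of 2-fold. Basophil/mast-like cells were highest, at 50.9 to 76.4 CPM.

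Socs2 (ENSMUSG00000020027, chromosome 10 from 95385362 to 95417180), a STAT5 target that restrains cytokine and growth hormone signals, was highest in B-cell progenitor-like cells and present in some classes with almost no Il7r. B-cell progenitor-like cells held 84.5 CPM for control (74.7 to 95.2), 49.7 CPM for Mll3-labelled (41.9 to 58.6), 115.1 CPM for Mll4-labelled (82.6 to 156) and 211 CPM for Mll3/4-labelled cells (208 to 214). The Mll3/4-labelled interval lay above the other 3, and the Mll3-labelled one below them. The log2 ratios to control were 1.32 (1.15 to 1.5003) and -0.77 (-1.07 to -0.47) for these libraries. The second value was -1.33 for the first hashtag alone and -0.22 (-0.66 to 0.21) for the second, so its size differed between hashtags. Thinned cells with a Socs2 UMI were 13.7% for control and 33.1% for Mll3/4-labelled cells, against 1.34% of control erythroid progenitor-like cells.

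Outside the B lineage, Socs2 was at 24.6 to 36.7 CPM in HSC/MPP-like cells and 12.2 to 20.1 CPM in megakaryocyte-like cells, whose thrombopoietin receptor signals through STAT5. The neutrophil-like, monocyte/macrophage and granulocyte progenitor-like cells of control and of the Mll3- and Mll4-labelled libraries held 0 to 0.731 CPM. Basophil/mast-like cells stood at 7.39 CPM for control (9 counts), 16.6 CPM for Mll3-labelled (10 counts) and 58.7 CPM for Mll4-labelled cells (43 counts), a log2 ratio of 2.99 (1.93 to 4.21) for the last. Il7r in the same Mll4-labelled cells was at 31.4 CPM (23 counts, 19.9 to 47.1) against 0 counts in control. The exact interval of that ratio began at 9.55-fold. Il2rg was at 136 CPM against 60.8 CPM. These 3 members were past 2-fold upwards in a comparison where 11.4% of genes with at least 20 counts in either library were. At a finer clustering, basophil/mast-like cells led by Cma1 and Cpa3 were 151 Mll4-labelled and 15 control. Those led by Ms4a2 and Mcpt8 were 91 and 109, so library and cell state cannot be told apart in this class. The 9 neutrophil markers in all Mll4-labelled basophil/mast-like cells summed to 5317 CPM against 1689 CPM in control. The 9 basophil/mast markers summed to 16758 CPM there against 4564 CPM in control, and the 11 T/NK/innate lymphoid markers to 343 CPM against 465 CPM. Of those 11, 7 were above 0 against 5 in control: Cd3e, Cd3d, Cd3g and Ncr1 were at 0 in both, and Trbc2 and Tcf7 at 0 in control alone. Markers of the other 2 classes that carry Il7r were higher. The 12 B-cell progenitor markers were at 108 CPM against 40.3 CPM (10 against 8 above 0). The 8 mature B cell markers were at 49.1 CPM against 4.11 CPM (6 against 3 above 0). In Mll3-labelled basophil/mast-like cells the B-cell progenitor markers were at 131 CPM (10 above 0) and the mature B cell markers at 6.64 CPM. Il7r there was at 6.64 CPM (4 counts). The part of cells of other classes in the result was not tested.

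Cish (ENSMUSG00000032578, chromosome 9 from 107296026 to 107302784), the STAT5 target with the pair of motif sites shown above, encodes an inhibitor that binds activated receptors. In the B class it was at 11.7 CPM for control (37 counts, 8.21 to 16.1), 9.39 CPM for Mll3-labelled (27 counts), 16.8 CPM for Mll4-labelled (6 counts, 6.18 to 36.7) and 25.6 CPM for Mll3/4-labelled cells (1944 counts, 24.5 to 26.8). Against control the Mll3/4-labelled log2 ratio was 1.14 (0.67 to 1.65), and was below 2-fold in 3 alternatives, at 0.67 (-0.05 to 1.48) for the second hashtag alone, 0.71 in thinned cells and 0.69 in high-Mki67 clusters. Most Cish in control came from a class nearly without Il7r: erythroid progenitor-like cells, at 7.17 to 12.99 CPM over 3 libraries, held 61.7% of the control counts, and B-cell progenitor-like cells 3.01%. Such shares move with the number of cells and their RNA. The erythroid cells of control had a median of 47603.5 UMIs against 4414.5 in the B class, and their Cish level was 10.9 against 11.7 CPM. HSC/MPP-like cells held 16.0 CPM for control, 14.6 CPM for Mll3-labelled and 5.63 CPM for Mll4-labelled cells (11 counts). The last is a log2 ratio of -1.51 (-2.53 to -0.64), the 1 member past 2-fold downwards among HSC/MPP-like cells, where 5.44% of genes were. At a finer clustering 181 Mll4-labelled cells and no control cell formed a cluster of their own, left unnamed because dendritic markers were among its leading genes, and the cluster led by Hlf and Ly6a held 34 Mll4-labelled against 505 control cells. Cish was also past 2-fold downwards in Mll4-labelled megakaryocyte-like cells, at 4.08 CPM (8 counts) against 10.6 CPM, where 5.02% of genes were. In lymphoid-primed progenitor-like cells of that library, with 1 Cish count, it and Il7r were the 2 members past 2-fold downwards, beside 5.29% of genes. Within control HSC/MPP-like cells Cish was unevenly spread, at 29.1 CPM in the cluster led by Hlf and Ly6a and 4.09 CPM in the one led by histone genes and Cd34. Cish overlaps Gm17040 and Gm17041 on the opposite strand.

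**Figure D2:**
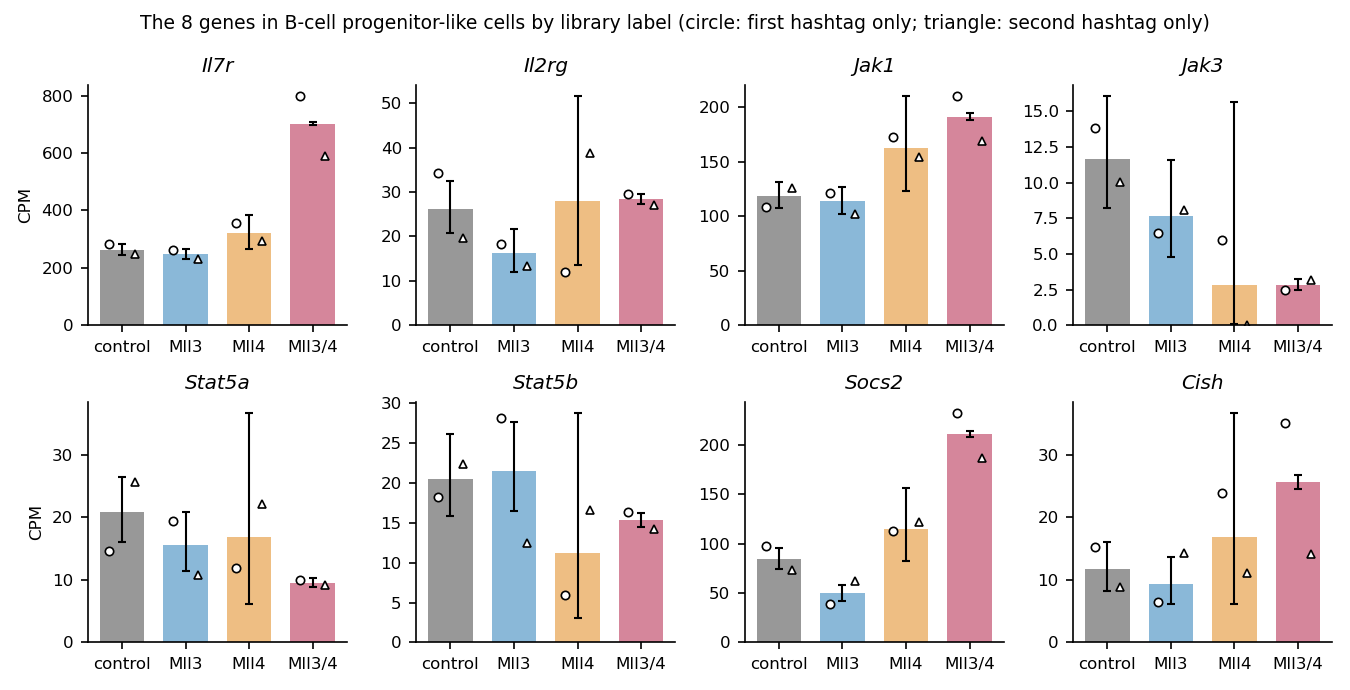
CPM of each gene in B-cell progenitor-like cells of the 4 libraries; bars are sums over the class with 95% counting intervals, circles are cells with the first hashtag only and triangles cells with the second only. Il7r, Jak1 and Socs2 are highest in the Mll3/4-labelled library with both hashtags above the control bar, and Jak3 and Stat5a are lower there.

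Of the 8 genes, all of which had at least 20 counts in either library, 3 were at least 2-fold higher (Il7r, Socs2, Cish) and 2 at least 2-fold lower (Jak3, Stat5a) in B-cell progenitor-like cells of the Mll3/4-labelled library than in control. Over the 13455 genes with that many counts, 17.5% were past 2-fold upwards and 9.98% downwards. The median log2 ratio was 0.40 over the 8 genes and -0.03 over all genes compared. Set against the Mll3-labelled library, the class had 3 members higher and 1 lower, where 20.7% and 8.42% of genes were, and against the Mll4-labelled library 1 higher and none lower, where 26.7% and 16.8% were. The 3 comparisons share the Mll3/4-labelled cells. Over all cells against control, 4 members were higher and 1 lower, beside 19.8% and 19.5% of genes.

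**Figure D3:**
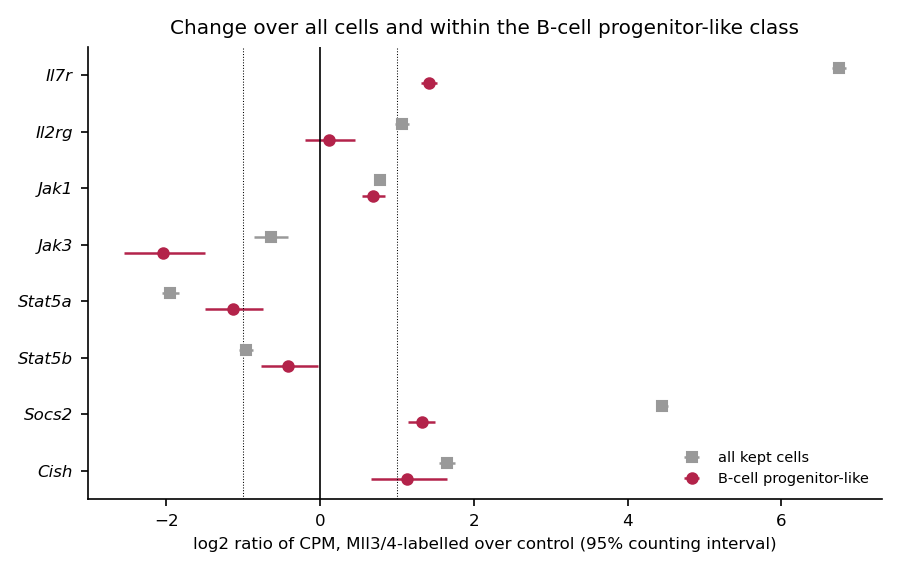
Log2 ratio of CPM between the Mll3/4-labelled library and control for each gene, over all kept cells (squares) and within B-cell progenitor-like cells (circles), with 95% counting intervals; dotted lines mark 2-fold. Il7r goes from 6.75 over all cells to 1.41 within the class and Socs2 from 4.45 to 1.32, while Jak3 goes from -0.64 to -2.05.

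The Mll3-labelled library had no member past 2-fold in either direction, over all cells or within B-cell progenitor-like cells. Of all genes, 1.58% were higher and 3.4% lower over all cells and 0.598% and 2.63% in the class. The Mll4-labelled library had Jak3 alone past 2-fold upwards over all cells, where 9.67% of genes were, and none downwards, where 8.88% were. In its B-cell progenitor-like cells Jak3, with 1 count, was the only member past 2-fold downwards and none was upwards, beside 9.54% and 8.92% of genes. At 143 cells and 4 to 114 counts per gene other than Jak3, that class gives wide intervals.

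**Figure D4:**
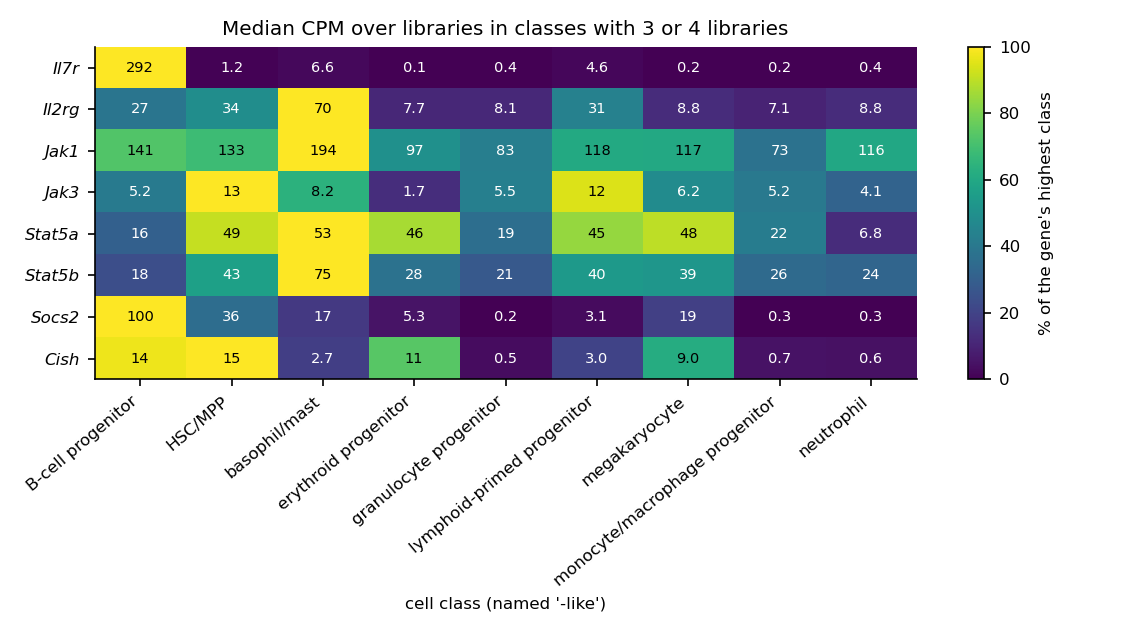
Median CPM over libraries of each gene in the classes with at least 50 cells in 3 or 4 libraries; colour is the percent of the gene's own highest class, so rows and not columns are compared. Il7r is highest in the B-cell progenitor class, Cish has like levels in B-cell progenitor, HSC/MPP, erythroid and megakaryocyte classes, and Stat5a is lowest in neutrophils.

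Within the Mll3/4-labelled B-cell progenitor-like cells, the STAT5 target Cish differed most between hashtags. It was at 35.2 CPM in the 3672 cells with the first hashtag only and 14.2 CPM in the 2979 with the second. Il7r was at 799.5 and 589.6 CPM, Socs2 at 232 and 187 CPM, Jak1 at 210.1 and 169 CPM, and CD127 at 53.5 and 54.4 counts per cell. These 4 transcripts were higher with the first hashtag and the antibody was not. Jak3 was at 2.45 CPM (1.985 to 2.9996) with the first and 3.19 CPM (2.62 to 3.84) with the second, where the intervals overlap.

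Clusters and hashtags overlapped in part. The largest low-Mki67 cluster, of 2654 cells and 70.5% first hashtag, held 44.0 CPM of Cish, and the next, of 2171 cells and 62.0% second hashtag, 13.2 CPM. In the larger cluster the hashtags still differed, at 51.7 CPM for the first and 24.6 CPM for the second, and in the next they did not, at 12.4 CPM (9.92 to 15.3) and 13.6 CPM (11.7 to 15.8). Cish was also higher with the first hashtag in both high-Mki67 clusters, at 21.2 against 7.48 CPM and 27.0 against 10.3 CPM. Il7r followed a like pattern, with 872 and 595 CPM in the larger cluster and 752 and 723 CPM in the next. Its lowest value, 296 CPM, lay in a cluster of 232 cells with a median of 3652.5 UMIs, close to the 300.5 CPM of the low-Mki67 cluster of control, whose median was 3415 UMIs. Socs2 in that small cluster was at 80.6 CPM, near the 89.5 CPM of the same control cluster.

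CD127 was highest in the dividing clusters of the Mll3/4-labelled library, at 67.4 to 70.7 counts per cell by hashtag, and lowest in the small cluster, at 29.0 and 36.2 counts.

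At the level of single cells, Il7r and the STAT5 targets Socs2 and Cish were at most weakly tied. The direction was not the same in all libraries, in values that rest on few cells outside the Mll3/4-labelled library. Among thinned Mll3/4-labelled B-cell progenitor-like cells, 35.3% of those with an Il7r UMI had a Socs2 UMI and 28.9% of those without. For Cish the shares were 5.15% and 3.08%, and for Jak1 32.7% and 30.7%. In control the Socs2 shares were 15.9% of 164 cells and 12.4% of 274 cells. Socs2 shares were 8.06% and 9.73% in the Mll3-labelled and 13.8% and 15.6% in the Mll4-labelled library, with 10 and 4 cells holding both transcripts. The control shares were 3.05% and 3.28% for Cish, with 5 cells holding both, and 4.27% and 6.20% for Il2rg. Such shares move with a cell's content of other RNA, and weak differences in sparse counts are given as values only.

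Levels of the genes were also compared over the 31 units of class and library with at least 50 cells, which share libraries and depth, as Pearson correlations of log2 of CPM plus 1. The 5 genes of 11232 most like Il7r were Pou2af1 (0.94), Lef1, Akap12, Sdc4 and Slamf6. For Socs2 they included Zfp664 (0.89), Dst, Spred2 and Sgce, and for Cish Agpat3 (0.86), Mllt3, Usp34 and Dzip1. Socs2 and Cish stood at 0.73 with each other. For Il7r the values were 0.55 with Socs2, 0.55 with Il2rg, 0.51 with Jak1, 0.47 with Cish, 0.04 with Jak3, -0.31 with Stat5b and -0.33 with Stat5a. Of the named companions of Socs2, Spred2 restrains RAS signalling and had been listed among the STAT5-linked genes below.

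The rest of the pathway was followed in 6 lists of 75 genes in B-cell progenitor-like cells, with the Mll3/4-labelled library against control. Over all genes of that comparison, 17.5% were past 2-fold upwards and 9.98% downwards. The class held 6830 Mll3/4-labelled against 468 control cells. A gene could thus reach 20 counts through the Mll3/4-labelled library alone, as Il15ra and Il7 below did. Genes let in this way lean towards higher values there. The counts of genes past 2-fold in these lists are therefore given as values only. Among other receptors and ligands of the gamma chain family, 4 of 6 genes with at least 20 counts in either library were at least 2-fold higher and none lower. Il21r was at 42.5 CPM against 13.2 CPM and Il4ra at 11.4 CPM against 3.78 CPM. Il15ra was at 6.42 CPM against 2.52 CPM (8 counts), and Il7 itself at 1.66 CPM against 1 count in control, a log2 ratio of 2.40 (-0.11 to 7.71) whose interval spans 0. Crlf2, the partner of Il7r in the TSLP receptor, was at 77.0 CPM against 60.8 CPM, below 2-fold.

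Other receptors that activate STAT5 gave 3 genes higher and none lower of 5, beside 17.5% and 9.98% of all genes. Prlr, the prolactin receptor, was at 359 CPM against 6.31 CPM in control (20 counts), a log2 ratio of 5.83 (5.21 to 6.54), and at 5.91 and 11.2 CPM in the Mll3- and Mll4-labelled libraries. Flt3 was at 29.8 CPM against 5.67 CPM and Kit at 192 CPM against 82.6 CPM. Csf2ra, the GM-CSF receptor alpha chain, was at 25.4 CPM against 30.9 CPM. Prlr and Foxo1 were among the leading genes of some Mll3/4-labelled clusters and helped to form them, so their differences describe those clusters. Kit was also 190.9 CPM in the Mll4-labelled library, a log2 ratio to control of 1.21 (0.80 to 1.60).

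The other kinases and STATs stayed within 2-fold, with none of 7 past it. Stat4 was at 52.5 CPM against 43.8 CPM and Stat3 at 29.1 CPM against 30.3 CPM. Inhibitors of cytokine signalling gave 1 gene higher and 1 lower of 18. Ptpn6, which encodes the phosphatase SHP-1, was at 7.30 CPM against 49.2 CPM, a log2 ratio of -2.75 (-3.01 to -2.49). Socs3 had 3 counts in control, and its log2 ratio was 1.58 (0.01 to 3.87). Ptprc, Cbl and Ptpn2, the inhibitors with the highest levels, were at 115.1, 55.5 and 40.8 CPM against 105.6, 53.9 and 51.1 CPM.

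Genes named as STAT5 targets or as growth and survival genes downstream of interleukin 7 differed in both directions, with 3 higher and 5 lower of 15, beside 17.5% and 9.98% of all genes. Gadd45g was at 16.0 CPM against 2.21 CPM (7 counts), Spred2 at 91.8 CPM against 31.2 CPM and Bcl2l1, which encodes the survival protein BCL-XL, at 61.0 CPM against 24.6 CPM. Lower were Lmo2 at 1.62 CPM against 63.05 CPM, Bcl6 at 0.870 CPM against 8.196 CPM and Pim1, a STAT5-induced kinase, at 54.4 CPM against 120.4 CPM. Cyclin D genes were lower too, with Ccnd2 at 32.0 CPM against 84.5 CPM and Ccnd3 at 180.2 CPM against 456 CPM. Mcl1, a survival gene, was at 128.6 CPM against 196 CPM, within 2-fold. The list median log2 ratio was -0.03, as it was over all genes.

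In the PI3K, AKT and FOXO branch, 2 of 13 genes were higher and 2 lower. Foxo1, a transcription factor that acts on Il7r in B-cell progenitors, was at 476 CPM against 119.5 CPM and Pik3r1, the regulatory subunit of PI3K, at 340.2 CPM against 85.4 CPM, both with a log2 ratio of 1.99. Lower were Pik3cd, the catalytic subunit, at 26.6 CPM against 71.6 CPM, and Inpp5d, a lipid phosphatase, at 62.1 CPM against 140.6 CPM.

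**Figure D5:**
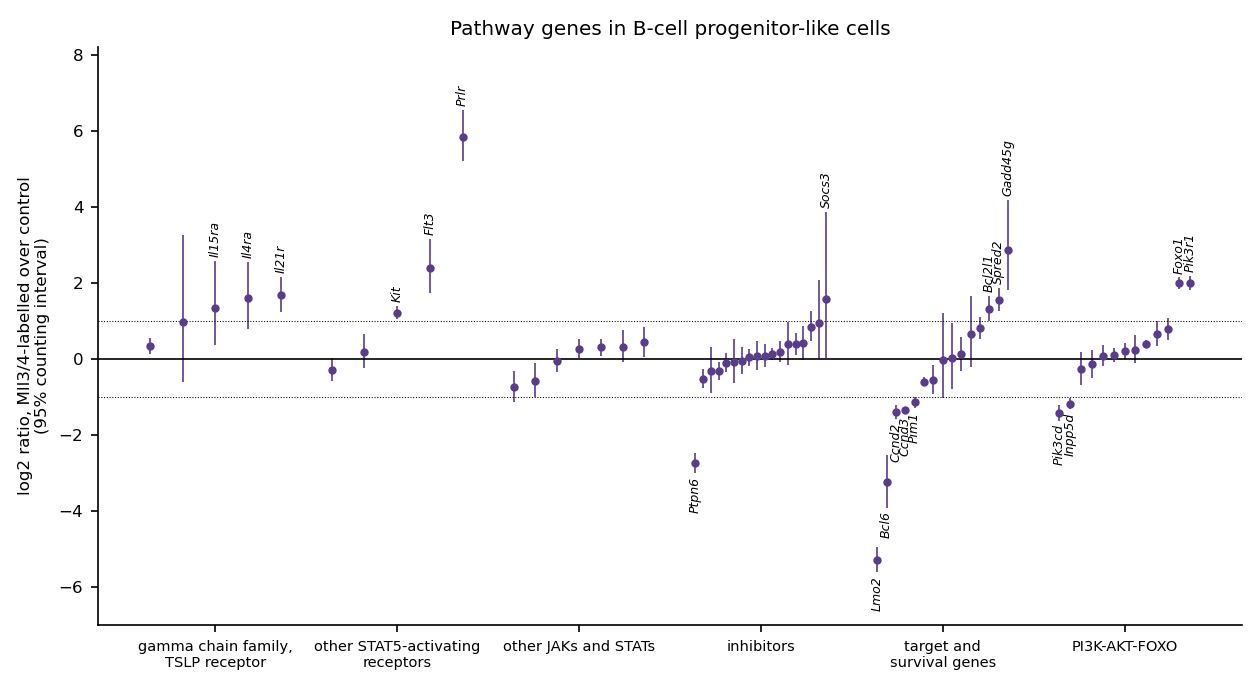
Log2 ratio between the Mll3/4-labelled library and control in B-cell progenitor-like cells for list genes with at least 20 counts in either library and 3 in control, with 95% counting intervals; dotted lines mark 2-fold and genes past it are named. Prlr (5.83) and Lmo2 (-5.28) lie farthest from 0, and no Janus kinase or STAT outside the 8 genes passes 2-fold.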

How the data were processed

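The deposited matrices hold UMI counts per gene and cell, with no normalization, for 32285 genes, 13 surface antibodies and 2 hashtags. They were made with Cell Ranger 6.1.2 on mm10, per the submitters' processing notes; libraries are 10x Genomics 3′ version 3.1, per the labels. The annotation release is not given in the sources used here. Barcodes with at least 500 genes, 1000 UMIs and at most 10% mitochondrial UMIs were kept, and the highest Scrublet scores were removed at 0.8% per 1000 barcodes, 299 to 622 cells per library. Some doublets remained: 1.57% to 4.64% of kept cells carried both hashtags. Free RNA was not corrected.

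Clustering used scanpy 1.11.5 (2000 variable genes without the 8 genes, Xist, Y-linked and mitochondrial genes; 30 components, 15 neighbours, Leiden resolution 1, seed 0). A cluster took the class with the highest mean standardized marker level among those with at least 3 markers in 10% of its cells, and stayed unnamed where its 10 leading genes held more markers of another class. Counts were summed per class and library. A gene was past 2-fold at a log2 ratio of 1 or more either way, without pseudocount, given at least 20 counts in either library. Classes needed 50 cells. Shares of cells with a UMI came from cells thinned to 2000 UMIs. Ratios and intervals were tested on simulated data. TMM factors came from edgeR 4.0.16.

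The members, lists, markers and tests were chosen with earlier results of these data known. The 8 genes are always described; of the lists, genes past 2-fold in the Mll3/4-labelled B-cell progenitor-like comparison and up to 3 with the highest CPM are named; companions are the 5 highest correlations for Il7r, Socs2 and Cish. A few genes that these rules name are not reported here. Alternatives covered scaling, cell filters, doublets, hashtags, thinning, count minimum, clustering and, chosen after seeing the data, the split by Mki67.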

Additional observations from a re-analysis of the deposited data

Results flagged for a closer look

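Among ratios with counts in both libraries, 5 genes differed from control in opposite directions in different cell classes, with counting intervals on either side of 0. Il7r in the Mll4-labelled library also did so but is outside this count, because its ratios involve a zero. It had 23 counts against 0 in control in basophil/mast-like cells, and 0 against 57 in lymphoid-primed progenitor-like cells. The difference between classes was not tested. The share of all genes with such opposite directions was not computed, so nothing about the members is read from this count. In the Mll4-labelled library Il2rg had a log2 ratio of 1.17 in basophil/mast-like and -0.57 in HSC/MPP-like cells. A finer clustering split both classes unevenly between this library and control. Jak1 there was at 0.45 in B-cell progenitor-like and -0.33 in HSC/MPP-like cells; the lower bound of the first was 0.029, and TMM scaling moved ratios of that class by -0.25, so its interval then spans 0. Stat5a was at 0.29 in erythroid progenitor-like cells, where the median over all genes was 0.23, and at -0.48 in neutrophil-like cells, which lay in different clusters in the 2 libraries. Socs2 was at 2.99 in basophil/mast-like and -0.72 in megakaryocyte-like cells of the same library. In the Mll3-labelled library Stat5b was at 0.58 in basophil/mast-like and -0.33 in granulocyte progenitor-like cells.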

How the results depend on the processing

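Each group is 1 library, so no alternative measures spread between animals. Shares over all genes were not computed for the alternatives, so the counts of members past 2-fold below are given as values only. No paired analysis was possible because each group has 1 library and none carries a replicate number. For Il7r in B-cell progenitor-like cells, the Mll3/4-labelled log2 ratio to control kept its direction and stayed past 2-fold in all 19 alternatives (1.26 to 1.66). These include the changes of count minimum, which cannot move a ratio and so do not test it. The ratio was 1.53 with TMM scaling, 1.26 with the second hashtag and 1.66 in cells chosen by 3 markers without clustering. Over all cells it was 5.17 as a mean of cell shares, 5.26 in thinned cells, 6.86 and 6.50 with the first and second hashtag, and 6.54 with a pseudocount of 1 CPM. Of its members, 1 was lower in the class with the first hashtag; over all cells 3 were lower as a mean of cell shares, and 2 with TMM scaling, in thinned cells and with the second hashtag.

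For the Mll4-labelled library, Il7r over all cells was -0.21 as a mean of cell shares, -0.89 with at least 2000 UMIs, -1.88 in thinned cells, -0.38 with the first and 0.52 with the second hashtag. In the class it was -0.024 with at least 2000 UMIs, -0.22 in thinned cells, 0.78 in low and -0.16 in high Mki67 clusters. Its members past 2-fold upwards over all cells were 0 as a mean of cell shares and in thinned cells. Those downwards over all cells were 1 with TMM or median-of-ratios scaling, as a mean of cell shares, with at least 2000 UMIs, with no doublets removed and with the second hashtag, and 3 in thinned cells. Downwards in the class there were 2 with TMM or median-of-ratios scaling, at least 2000 UMIs, at most 5% mitochondrial UMIs and the first hashtag, 3 in high Mki67 clusters, and 0 in thinned cells, with the second hashtag, with at least 100 counts and in low Mki67 clusters. TMM moved all log2 ratios of this class by -0.25.

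For the Mll3-labelled library, Il7r over all cells was -0.10 with the second hashtag. In the class it was -0.25 as a mean of cell shares and in thinned cells, -0.49 in cells chosen by 3 markers and in low Mki67 clusters, and 0.20 in high Mki67 clusters. Members past 2-fold downwards were 1 over all cells with the second hashtag; in the class they were 2 with the first hashtag and 1 as a mean of cell shares, with the second hashtag and in cells chosen by 3 markers.

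The log2 ratio of mean CD127 between Mll3/4-labelled and control cells of the class, 0.51, was 0.48 with at least 2000 UMIs and with doubly tagged cells removed, 0.55 with no doublets removed, 0.47 with the first hashtag, 0.56 at Leiden resolution 0.5, 0.62 in cells chosen by 3 markers, 0.76 and 0.31 in low and high Mki67 clusters, and 1.503 as a share of surface antibody counts. Jak3 stayed past 2-fold downwards in all 19 alternatives and Stat5a in 18. Socs2 stayed past 2-fold upwards in 19 and Cish in 16. These tallies also include the changes of count minimum, which leave a ratio as it is.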
